A study of Mus musculus with 26 samples.

Results

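The genes described here are 9 members of the Nodal and BMP signalling pathways, taken by name from the expression tables: the ligand Nodal, its co-receptor Tdgf1, its secreted inhibitors Lefty1 and Lefty2, the ligand Bmp4, the BMP target genes Id1, Id2 and Id3, and the inhibitory Smad gene Smad7. They are 9 of 24015 genes measured by RNA-seq in mouse embryonic stem cells (mESCs), over 15 libraries, and all 9 passed the filter on low values. All cells carried a Stella:GFP reporter transgene. wt cells gave 1 library from serum+LIF and 2 from 2i+LIF, a serum-free medium with a MEK and a GSK3β inhibitor. The other lines were CRISPR/Cas9 clones, each grown from a single cell, and derivatives of them, which with the wt serum cells had spent 5 days in serum+LIF. Prdm14-/- cells were clones G6 and F10 (1 library each), which lack the transcriptional regulator Prdm14. The same clones with FLAG-HA-tagged Prdm14 cDNA added back were called FH-Prdm14, and those given the mutant E294K, made so as not to bind the co-repressor Mtgr1, were called E294K (2 libraries each). Mtgr1-/- cells were clones A3, C1 and C3, and FH-Mtgr1 cells were these clones with tagged Mtgr1 added back (3 libraries each).

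Nodal and BMP ligands belong to the TGF-β family and signal through paired serine/threonine kinase receptors. Nodal, with the help of the co-receptor Tdgf1 (Cripto), activates Smad2 and Smad3, which work with the DNA-binding partner Foxh1, and it switches on its own inhibitors Lefty1 and Lefty2. BMPs activate Smad1 and Smad5, which switch on the Id genes. Id proteins dimerise with basic helix-loop-helix factors and keep them off DNA, and in mESCs grown with serum and LIF they are known to hold back neural differentiation, whereas Nodal signalling keeps the epiblast pluripotent and later patterns the primitive streak.

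Upstream sequences are shown for a gene of each branch, the BMP target Id2 and the Nodal co-receptor Tdgf1, because both differed between conditions. The RefSeq promoter table (build GRCm38.p6) was matched for 5 members (Nodal, Tdgf1, Bmp4, Id2 and Id3), and no window is shown for Lefty1, Lefty2, Id1 and Smad7. The 250 bases before each start were located by exact match in NCBIM37, the assembly also called mm9, on which the expression values were made. Capitals mark matches on either strand to GGCGCC, a form of the element read by BMP-activated Smads, to CAGAC, the short Smad-binding element, and to TGTNNATT, a form of the Foxh1 site.
Id2, chr12:25780958-25781207, minus strand: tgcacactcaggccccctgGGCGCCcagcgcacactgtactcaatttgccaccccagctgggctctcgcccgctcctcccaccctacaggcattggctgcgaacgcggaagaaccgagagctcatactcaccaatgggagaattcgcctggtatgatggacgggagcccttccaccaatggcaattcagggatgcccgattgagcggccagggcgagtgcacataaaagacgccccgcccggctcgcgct
Tdgf1, chr9:110848663-110848912, minus strand: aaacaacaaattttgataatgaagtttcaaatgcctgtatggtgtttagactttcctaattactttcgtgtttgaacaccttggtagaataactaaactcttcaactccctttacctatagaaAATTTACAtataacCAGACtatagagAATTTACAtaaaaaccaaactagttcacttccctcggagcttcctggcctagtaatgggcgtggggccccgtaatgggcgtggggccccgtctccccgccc
The Id2 window held 1 match to GGCGCC, which 9.6% of 32851 promoter windows of that length hold. The Tdgf1 window held 1 match to CAGAC (42.2% of windows) and 2 matches to TGTNNATT (10.9% of windows), and no matches overlapped. The Id3 window, which is not printed, held 2 matches to CAGAC. The Nodal and Bmp4 windows held no match to any of these letters, which describes only these 250 bases.

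The depth was between 10668572 and 21218414 reads on genes per library (median 13793727), and levels are given as the RPKM that the authors deposited, which scales reads by gene length and by the reads counted in the library. The pluripotency gene Pou5f1 was between 308 and 943 RPKM in all libraries, and was lowest in Prdm14-/- cells (308 and 395 RPKM). Prdm14 RNA was at 1.96 to 3.60 RPKM in Prdm14-/- cells against 2.77 in the wt serum library, so that the RNA level did not mark the knockout. Cbfa2t2, which encodes Mtgr1, was at 18.02 to 19.9 RPKM in Mtgr1-/- and 25.5 to 28.0 RPKM in FH-Mtgr1 cells. It was at 40.7 RPKM in the wt serum library and at 16.6 to 16.8 RPKM in Prdm14-/- cells. Its level thus did not mark the Mtgr1 knockout either, and the FH-Mtgr1 lines lay below wt serum cells. Prdm14 was at 79.8 to 116 RPKM in FH-Prdm14 and 89.9 to 105 RPKM in E294K cells, far above wt serum cells. The pair of 2i+LIF libraries stood apart from each other in these genes, with Lefty2 at 276 and 35.5 RPKM, so that 2i was also compared with serum with each library alone. Leaving both out of the fit lost no member's call in the comparisons that do not hold 2i, and the calls gained are given with the results. The values of other pathway and marker genes come from the fit that includes them. Libraries were read on either of 2 sequencers, and which was read on which is not given in the sources used here, so that instrument and condition cannot be told apart. A gene's deviation from its mean over libraries also followed its transcript GC content, and differently by condition. Spearman's rho was -0.46 in wt serum, -0.34 and -0.27 in E294K and -0.26 to -0.155 in FH-Mtgr1 cells. It was 0.25 and 0.465 in Prdm14-/-, 0.20 and 0.29 in FH-Prdm14, -0.21 to 0.24 in Mtgr1-/- and 0.22 and -0.05 in 2i cells.

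Conditions were compared with limma on log2(RPKM + 0.5) over all 13477 genes past the filter, and differences below are on that scale with their standard error (SE) and a p-value adjusted by the Benjamini-Hochberg method. Against their own rescue lines, Mtgr1-/- cells had more RNA of the Nodal inhibitors, of Bmp4 and of the Id genes: 6 of the 9 members passed the threshold of 0.05 and all 6 were higher (Lefty1, Lefty2, Bmp4, Id1, Id2 and Id3). Of all genes tested, 52.3% passed in this comparison, 3537 of them higher and 3514 lower. The median difference of the 9 members was 1.29, against -0.01 over all genes. In Prdm14-/- against FH-Prdm14 cells, 4 of 9 members passed, with Lefty1, Id1 and Id2 higher and Tdgf1 lower, against 25.2% of all genes. The median of the members was 1.07, and that of all genes was -0.09. In a fit of both conditions alone Lefty2 and Smad7 passed as well. With the parental clone as a block in that fit Id3 did too, and 7 of 9 members passed. With the block and an adjustment for GC content together, 7 of 9 members and 6000 of 12046 genes passed.

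**Figure D1:**
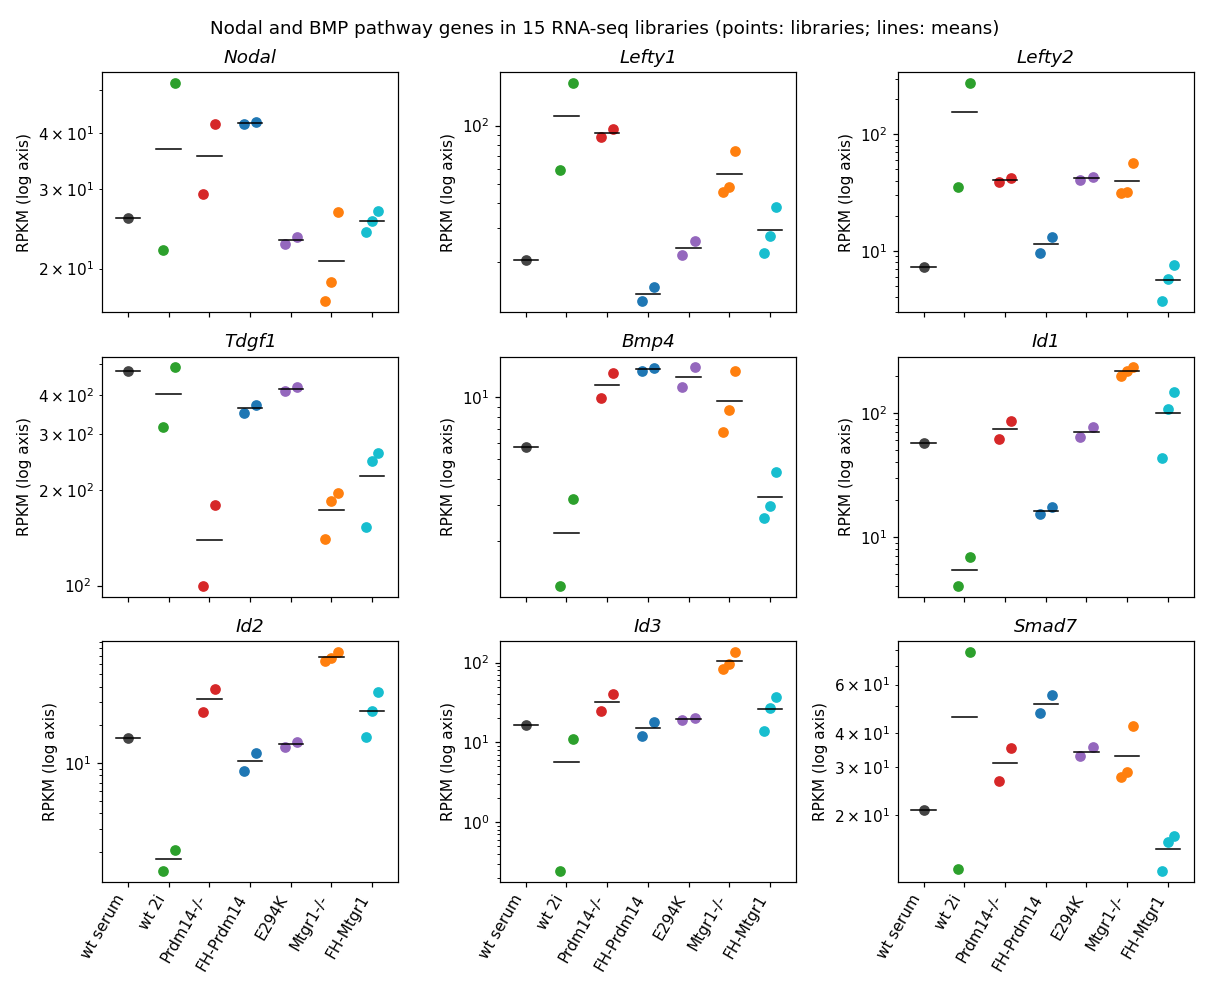
RPKM (log axis) of each member in 15 libraries, by condition on the x axis; points are libraries and lines are condition means. The 3 Mtgr1-/- clones lay above every other library for Id1, Id2 and Id3, and the FH-Prdm14 lines held the lowest Lefty1 values.

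Nodal itself, the ligand, did not pass the test in either knockout against its rescue line. It was at 25.96 RPKM in wt serum cells, and at 18.6, 16.9 and 26.8 RPKM in Mtgr1-/- clones A3, C1 and C3 against 25.5, 24.1 and 26.8 RPKM in the same clones with FH-Mtgr1. The groups overlapped, and the difference of -0.31 (SE 0.26) had an adjusted p of 0.328. With the clone block and an adjustment for GC content together it passed (-0.38, adjusted p = 0.0201). In the Prdm14 series it was at 42.0 (G6) and 29.3 (F10) RPKM in Prdm14-/- cells, 42.4 and 41.9 RPKM in FH-Prdm14 cells and 23.5 and 22.7 RPKM in E294K cells. Both E294K lines thus lay below all 4 of the other lines of these clones. The difference between E294K and FH-Prdm14 cells was -0.86 (SE 0.32, adjusted p = 0.0786), and it passed in the blocked fit (adjusted p = 0.00174) and without the 2i libraries (adjusted p = 0.0106). With an adjustment for GC content it was -0.58 (adjusted p = 0.112, or 0.000284 with the block as well). By mean log2(RPKM + 0.5) the order ran from FH-Prdm14 through Prdm14-/-, 2i, wt serum, FH-Mtgr1 and E294K to Mtgr1-/- cells, and no neighbours in it had a 95% interval of their difference that left out 0. In 2i+LIF Nodal was at 51.7 RPKM in library 1 and 22.0 RPKM in library 2, on either side of the wt serum value.

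The co-receptor gene Tdgf1 was the most abundant member in every library outside the Mtgr1-/- clones, where Id1 was above it, and its mean was lowest in both knockouts. It was at 475 RPKM in wt serum cells, 99.7 (G6) and 179 (F10) RPKM in Prdm14-/- cells, 351 and 372 RPKM in FH-Prdm14 cells and 421 and 411 RPKM in E294K cells. The Prdm14-/- values lay below all values of the same clones with either Prdm14 form. Tdgf1 was 2.70-fold lower in Prdm14-/- than in FH-Prdm14 cells (difference -1.43, SE 0.31, adjusted p = 0.00515), and 3.11-fold higher in E294K than in Prdm14-/- cells (1.64, SE 0.31, adjusted p = 0.00284). Without Prdm14-/- clone G6, the former difference was -1.01 (adjusted p = 0.0736). E294K and FH-Prdm14 cells differed by 0.20 (95% interval -0.47 to 0.87). In Mtgr1-/- clones A3, C1 and C3 Tdgf1 was at 185, 196 and 139.7 RPKM, and with FH-Mtgr1 at 262, 248 and 153 RPKM. These groups overlapped, and the difference of -0.32 (SE 0.25) had an adjusted p of 0.298. All FH-Mtgr1 lines also lay below the wt serum library. Of the 51-base windows of the Tdgf1 transcript, 20.5% occur at more than 1 place in the genome, and reads in them may have been counted elsewhere or dropped.

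The Lefty genes, which encode inhibitors that bind Nodal and its co-receptor, separated knockout from rescue in both series. Lefty1 was at 20.6 RPKM in wt serum cells, 96.4 (G6) and 87.4 (F10) RPKM in Prdm14-/- cells, and 14.9 and 12.6 RPKM in the same clones with FH-Prdm14. It was 6.48-fold higher without Prdm14 (difference 2.70, SE 0.39, adjusted p = 0.000434). The E294K lines were at 25.7 (G6) and 21.8 (F10) RPKM, close to wt serum cells. They were 3.82-fold below Prdm14-/- cells (-1.93, SE 0.39, adjusted p = 0.00394), whereas their difference from FH-Prdm14 cells was 0.76 (SE 0.39, adjusted p = 0.187; 0.00226 in the blocked fit and 0.0459 without the 2i libraries). In the Mtgr1 clones Lefty1 was at 48.8 (A3), 45.9 (C1) and 74.5 (C3) RPKM in the knockout and 38.2, 27.4 and 22.2 RPKM in the rescue. The groups did not overlap, and Lefty1 rose 1.91-fold (0.93, SE 0.32, adjusted p = 0.0263). This call was lost without knockout clone C3 (difference 0.72, adjusted p = 0.102), without rescue line C1 (0.91, adjusted p = 0.0661) or C3 (0.76, adjusted p = 0.103) and with no filter on low values (adjusted p = 0.0501).

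Lefty2 separated the Mtgr1 lines further. It was at 7.24 RPKM in wt serum cells, at 31.8 (A3), 31.7 (C1) and 56.8 (C3) RPKM in Mtgr1-/- cells and at 7.57, 5.75 and 3.70 RPKM in FH-Mtgr1 cells. Every knockout clone was above every rescue line, 6.55-fold on average (2.71, SE 0.54, adjusted p = 0.00132). In the Prdm14 clones it was at 42.4 (G6) and 39.3 (F10) RPKM in the knockout, 13.2 and 9.64 RPKM with FH-Prdm14 and 43.1 and 40.8 RPKM with E294K. The E294K lines therefore had Lefty2 at the level of the knockout but Lefty1 far below it. Lefty2 missed the threshold against FH-Prdm14 in both, by 1.81 (SE 0.67, adjusted p = 0.0657) in Prdm14-/- and 1.85 (SE 0.67, adjusted p = 0.0701) in E294K cells, with groups that did not overlap. Without the 2i libraries these passed with adjusted p-values of 0.00129 and 0.0016, and in the blocked fits with 0.00018 and 0.0016. E294K and Prdm14-/- cells differed in Lefty2 by 0.04 (95% interval -1.41 to 1.49).

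The ratio of Lefty1 to Lefty2, both per kilobase, varied less within a condition than between conditions in serum+LIF. It was 4.77 to 6.01 in the 3 FH-Mtgr1 lines and 1.31 to 1.54 in the 3 Mtgr1-/- clones. In the Prdm14 clones it was 2.28 and 2.22 in the knockout, 1.13 and 1.31 with FH-Prdm14 and 0.596 and 0.534 with E294K (G6 and F10). wt cells were at 2.85 in serum and at 0.599 and 1.66 in 2i. The genes lie next to each other on chromosome 1, Lefty2 at chr1:182823239-182829234 and Lefty1 at chr1:182865153-182868531 (NCBIM37, plus strand), and share sequence: 17.3% of 51-base windows of the Lefty1 and 13.9% of the Lefty2 transcript occur at more than 1 place in the genome. No pair of conditions was tested for this ratio.

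**Figure D2:**
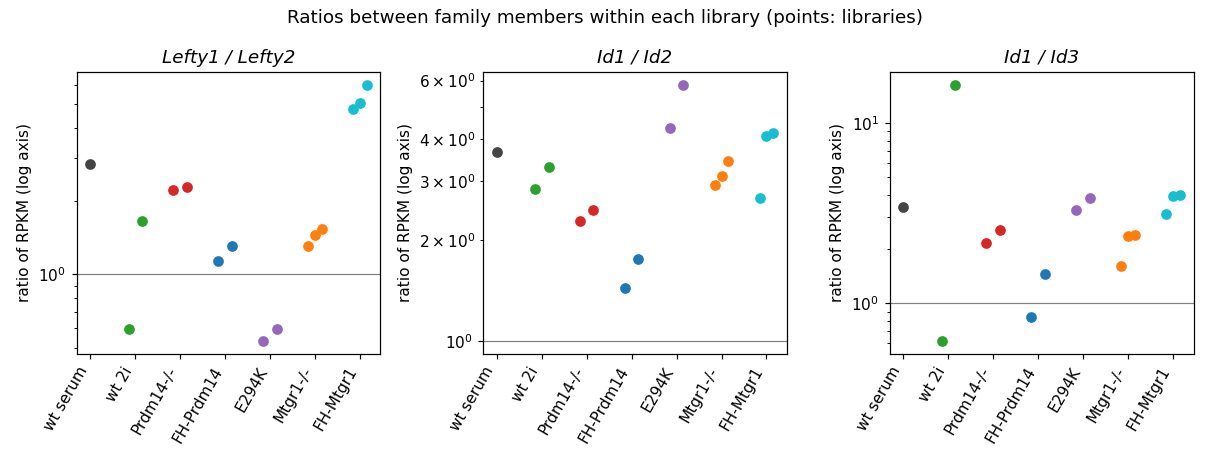
Ratio of RPKM between members of a family within each of 15 libraries (log axis), by condition; points are libraries and the grey line marks a ratio of 1. Lefty1 was 4.77 to 6.01 times Lefty2 in FH-Mtgr1 lines and 0.534 to 0.596 times Lefty2 in E294K lines, while Id1 was above Id2 in all libraries.

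Bmp4, the ligand of the BMP branch, was low in wt cells, at 5.72 RPKM in serum and at 3.20 and 1.21 RPKM in 2i. In Mtgr1-/- clones A3, C1 and C3 it was at 6.76, 8.66 and 13.4 RPKM and in the rescue lines at 2.58, 2.96 and 4.34 RPKM. The groups did not overlap, and Bmp4 was 2.62-fold higher in the knockout (1.39, SE 0.29, adjusted p = 0.00189). All lines of the Prdm14 clones were high, with 13.1 (G6) and 9.89 (F10) RPKM in the knockout, 13.4 and 13.9 RPKM with FH-Prdm14 and 13.9 and 11.2 RPKM with E294K. Knockout and FH-Prdm14 differed by -0.25 (95% interval -1.04 to 0.53). Between the rescue lines, Bmp4 was 3.80-fold higher in FH-Prdm14 than in FH-Mtgr1 cells (1.93, SE 0.33, adjusted p = 0.000831).

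The Id genes were highest in Mtgr1-/- cells. Id1 was at 57.2 RPKM in wt serum cells, at 198 (A3), 233 (C1) and 218 (C3) RPKM in Mtgr1-/- cells and at 147, 107 and 43.1 RPKM in FH-Mtgr1 cells. The knockout clones were close to each other, whereas rescue line C3 was far below A3 and C1. Id1 was 2.45-fold higher in the knockout (1.29, SE 0.35, adjusted p = 0.00807). Id2 was at 67.6, 74.7 and 63.2 RPKM in Mtgr1-/- clones A3, C1 and C3 and at 35.9, 25.5 and 16.1 RPKM in their rescue lines, a 2.75-fold difference (1.46, SE 0.26, adjusted p = 0.000523). Id3 was at 84.1, 97.4 and 135 RPKM in the same knockout clones and at 37.0, 27.2 and 13.8 RPKM in the rescue. It was 4.23-fold higher (2.08, SE 0.72, adjusted p = 0.0283), and this call was lost with a pseudocount of 0.1 (adjusted p = 0.0632), with no filter (0.0573) and without knockout clone C1 (0.0558) or C3 (0.0803) or rescue line C1 (0.0536) or C3 (0.11). Without the 2i libraries the 3 Id genes all passed. In all 3 Id genes no knockout clone was below a rescue line, and rescue line C3 was the lowest of the FH-Mtgr1 lines.

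In the Prdm14 clones the Id genes took different courses under the mutant. Id1 was at 86.9 (G6) and 62.1 (F10) RPKM in Prdm14-/- cells, 15.2 and 17.4 RPKM with FH-Prdm14 and 63.6 and 77.3 RPKM with E294K. Wild-type Prdm14 thus went with a value below that of wt serum cells and the mutant with the knockout level. Against FH-Prdm14, Id1 was 4.42-fold higher in the knockout (2.14, SE 0.43, adjusted p = 0.00322) and 4.22-fold higher in E294K cells (2.08, SE 0.43, adjusted p = 0.0056), and E294K and knockout differed by -0.07 (95% interval -0.99 to 0.86). Without E294K line F10 or FH-Prdm14 line G6 the E294K difference had adjusted p-values of 0.0567 and 0.0532. Id2 was at 38.1 (G6) and 25.2 (F10) RPKM in the knockout, at 8.63 and 12.1 RPKM with FH-Prdm14 and at 14.7 and 13.3 RPKM with E294K. Unlike Id1, it was lower in E294K than in knockout cells (-1.12, SE 0.31, adjusted p = 0.0177), a call lost without knockout clone G6 (-0.83, adjusted p = 0.165) or either E294K line (adjusted p = 0.0994 without F10 and 0.0694 without G6). Knockout and FH-Prdm14 differed by 1.56 in Id2 (SE 0.31, adjusted p = 0.0034). Id3 was at 40.0 (G6) and 24.5 (F10) RPKM in the knockout, 18.1 and 11.9 RPKM with FH-Prdm14 and 19.3 and 20.1 RPKM with E294K. Its difference between knockout and FH-Prdm14 was 1.07 (SE 0.88, adjusted p = 0.412; 0.000798 in the blocked fit).

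**Figure D3:**
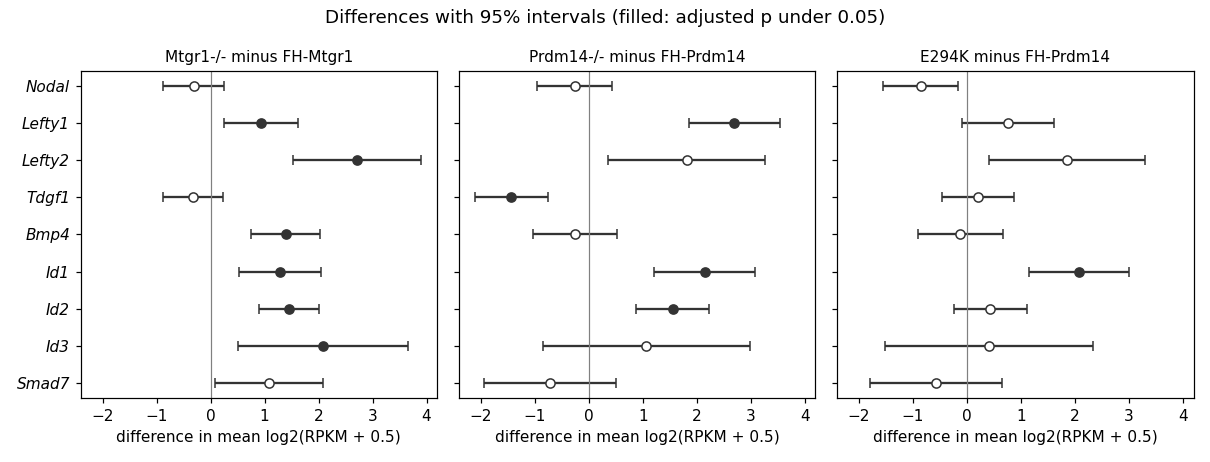
Difference in mean log2(RPKM + 0.5) with its 95% interval for each member in 3 comparisons; filled points had an adjusted p under 0.05. Filled points were 6 for Mtgr1-/- against FH-Mtgr1, 4 for Prdm14-/- against FH-Prdm14 and 1 (Id1) for E294K against FH-Prdm14 cells.

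Smad7, which encodes an inhibitor of both Smad branches and is switched on by them, did not pass the threshold in either knockout, and the knockouts lay on opposite sides of their rescue lines. It was at 20.8 RPKM in wt serum cells, at 28.9 (A3), 27.7 (C1) and 42.3 (C3) RPKM in Mtgr1-/- cells and at 12.5, 16.0 and 16.8 RPKM in FH-Mtgr1 cells. Every knockout clone was above every rescue line, and the difference of 1.08 (SE 0.46) had an adjusted p of 0.0648, or 0.00315 in the blocked fit and 0.000311 without the 2i libraries. In the Prdm14 clones it was at 35.2 (G6) and 26.7 (F10) RPKM in the knockout, 47.1 and 54.8 RPKM with FH-Prdm14 and 35.4 and 32.8 RPKM with E294K. Here the FH-Prdm14 lines were the highest, and the knockout differed from them by -0.72 (SE 0.56, adjusted p = 0.386; 0.0116 in the blocked fit and 0.0255 without the 2i libraries).

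The difference between the knockout-against-rescue effects was tested directly for each member as an interaction, and 2 of 9 members passed, against 31.4% of all genes. The Mtgr1 knockout-against-rescue effect minus the Prdm14 one was -1.76 for Lefty1 (SE 0.50, adjusted p = 0.0196). Lefty1 rose in both series and by more in the Prdm14 lines. The value for Bmp4 was 1.64 (SE 0.47, adjusted p = 0.0189), and Bmp4 passed in the Mtgr1 lines and not in the Prdm14 lines. Both values include the difference between the rescue lines, of which FH-Prdm14 had Prdm14 RNA far above wt serum cells. Mtgr1-/- minus Prdm14-/- was -0.73 for Lefty1 and -0.28 for Bmp4, neither of them a call. FH-Prdm14 minus FH-Mtgr1 was -1.03 for Lefty1 and 1.93 for Bmp4. The difference was 1.80 for Smad7 (SE 0.73, adjusted p = 0.0766) and 1.11 for Tdgf1 (SE 0.40, adjusted p = 0.0512), and both passed without the 2i libraries (adjusted p = 0.000557 and 0.0342). The rescue lines also differed from each other: in FH-Prdm14 against FH-Mtgr1 cells 6 of 9 members passed, against 41.6% of all genes. Bmp4, Smad7 and Tdgf1 were higher and Lefty1, Id1 and Id2 lower in FH-Prdm14 cells, by 5.28-fold for Id1 (-2.40, SE 0.39, adjusted p = 0.000588). Smad7 was 3.31-fold higher (1.73, SE 0.51, adjusted p = 0.0184), a call lost without FH-Mtgr1 line A3 (adjusted p = 0.0528). The Lefty1 call was lost with no filter (adjusted p = 0.0644) and without FH-Mtgr1 line A3 (0.114) or C1 (0.0648). Tdgf1 lost its call with a pseudocount of 0.1 (adjusted p = 0.0513), median-of-ratios scaling (0.0689) and no filter (0.0842), and without FH-Mtgr1 line C1 (0.0564) or C3 (0.165). Here the calls of Lefty1 (adjusted p = 0.0356), Tdgf1 (0.0498) and Smad7 were lost without either FH-Prdm14 line, Nodal (adjusted p = 0.00864) and Lefty2 (adjusted p = 0.0149), both higher in FH-Prdm14 cells, passed without the 2i libraries, and the count fell to 3 without FH-Prdm14 line F10 and to 2 without G6.

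Set directly against each other, the knockouts differed in 2 of 9 members, against 35.4% of all genes: Id1 was 2.93-fold (1.55, SE 0.39, adjusted p = 0.00928) and Id2 2.19-fold (1.13, SE 0.29, adjusted p = 0.00946) higher in Mtgr1-/- than in Prdm14-/- cells. Without Prdm14-/- clone F10 neither passed (adjusted p = 0.0857 and 0.108). With the 2i libraries left out 5 members passed, with Id3 higher and Nodal and Lefty1 lower in Mtgr1-/- cells as well. In that fit 5767 of all 13477 genes passed, against 4776 in the fit of all libraries. The E294K mutant differed from wild-type Prdm14 in the same clones in 1 of 9 members, Id1, against 19.5% of all genes. This count depended on the fit, with 4 members without the 2i libraries, 5 in the blocked fit, 6 with these conditions alone in the fit and 0 without E294K line F10 or FH-Prdm14 line G6. Of all 13477 genes, 7288 passed in this blocked fit, against 2633 in the fit of all libraries, to which the 19.5% belongs. Against Prdm14-/- cells, E294K cells differed in 3 of 9 members (Lefty1 and Id2 lower, Tdgf1 higher), against 32.9% of all genes. The blocked fit gave 5 members, where 5661 of all genes passed against 4435 in the fit of all libraries. It added Nodal (adjusted p = 0.0231) and Id3 (adjusted p = 0.0313), both lower in E294K cells. Without the 2i libraries Nodal passed as well (adjusted p = 0.0384).

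Both knockouts were also compared with the single wt serum library, which they share and whose spread is taken from the other conditions. In Mtgr1-/- cells 5 of 9 members passed, against 37% of all genes. Lefty1 (1.40, SE 0.45, adjusted p = 0.0288), Lefty2 (2.33, SE 0.77, adjusted p = 0.0317), Id1 (1.91, SE 0.49, adjusted p = 0.00989) and Id2 (2.10, SE 0.36, adjusted p = 0.00102) were higher. Tdgf1 was lower (-1.46, SE 0.36, adjusted p = 0.00719). Without clone C3 the count was 3, since both Lefty genes were lost. Id3 passed without the 2i libraries (2.59, adjusted p = 0.00104). In Prdm14-/- cells 3 of 9 members passed, against 25.4% of all genes: Lefty1 (2.13, SE 0.48, adjusted p = 0.0102) and Lefty2 (2.42, SE 0.82, adjusted p = 0.0476) were higher and Tdgf1 was lower (-1.83, SE 0.38, adjusted p = 0.00739). None passed without clone G6 (adjusted p = 0.0525 to 0.154 for these 3), and Lefty2 was lost without F10 (adjusted p = 0.0905). Id1 differed from the wt library by 0.36 (SE 0.52, adjusted p = 0.63) in these cells.

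In 2i+LIF against serum+LIF, 4 of 9 members passed, against 22.9% of all genes, with Lefty1 and Lefty2 higher and Id1 and Id2 lower. Id1 was at 6.82 and 4.01 RPKM in 2i libraries 1 and 2 against 57.2 RPKM in serum, 10.0-fold lower (-3.33, SE 0.52, adjusted p = 0.00125), and Id2 at 2.06 and 1.41 RPKM against 15.6 RPKM, 7.27-fold lower (-2.86, SE 0.38, adjusted p = 0.000478). Both 2i libraries thus lay far below every serum library for these genes. Lefty1 was at 165 and 59.0 RPKM against 20.6 RPKM in serum (2.23, SE 0.48, adjusted p = 0.00681). Lefty2 rose by 3.69 (SE 0.82, adjusted p = 0.0081), with 2i library 1 far above library 2. With library 1 alone the differences were 2.97 for Lefty1 and 5.16 for Lefty2, and with library 2 alone 1.49 and 2.22, and all 4 of these passed (adjusted p = 0.0129 or below). Id1 and Id2 passed with either library alone as well. Id3 was at 11.02 RPKM in library 1 and at 0.246 RPKM (3 reads) in library 2, against 16.7 RPKM in serum, so that its difference of -2.56 (SE 1.08, adjusted p = 0.106) rests on library 2, and Smad7 at 78.8 and 12.7 RPKM lay on either side of the serum value. In a fit of the 3 libraries alone these 4 calls were lost (adjusted p = 0.263 to 0.405).

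Other genes of the pathways were taken from lists of 28 Nodal, activin and TGF-β genes and 25 BMP genes, none of them members. Of the former, 24 were tested. In Mtgr1-/- against FH-Mtgr1 cells 9 were higher and 1 lower (41.7% against 52.3% of all genes), with a median of 0.20. The activin subunit gene Inhba was at 0.52 to 1.39 RPKM in the knockout and at 0.0474 to 0.0925 RPKM in the rescue (1.31, adjusted p = 0.000283). Tgfb2, a TGF-β ligand, was at 1.59 to 4.54 RPKM against 0.0333 to 0.107 RPKM (2.41, adjusted p = 2.31e-05), and the receptor gene Tgfbr2 at 1.83 to 3.10 RPKM against 0.213 to 0.364 RPKM (1.75, adjusted p = 8.11e-05). Follistatin (Fst), which binds activin, was at 2.51 to 3.57 RPKM against 0.186 to 0.437 RPKM (2.17, adjusted p = 0.000144). These 4 genes were low in every library, and the scale understates their change. Inhba and Tgfb2 reached 1 RPKM only in knockout libraries, and Tgfbr2 only there and in a 2i library at 1.51 RPKM. These 3 were thus tested only because they were high in the knockouts, and their direction is no separate result. The corepressor gene Ski rose by 1.00 (adjusted p = 0.00119). The co-receptor gene Cfc1 fell by 1.14 (adjusted p = 0.00108).

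In Prdm14-/- against FH-Prdm14 cells 7 of these 24 genes were higher and 1 lower (33.3% against 25.2% of all genes), with a median of 0.23. Foxh1, the DNA-binding partner of Smad2, was at 28.5 to 36.2 RPKM in the knockout and at 4.51 to 5.36 RPKM in FH-Prdm14 cells (2.59, adjusted p = 1.41e-05). All libraries of the other conditions were at 28.5 RPKM or above, and E294K cells were at 29.4 to 30.0 RPKM (2.48 above FH-Prdm14, adjusted p = 5.26e-05). Furin, a protease that matures TGF-β family ligands, was at 28.0 to 43.4 RPKM against 11.4 to 12.9 RPKM (1.49, adjusted p = 0.00134). Inhba (1.49, adjusted p = 0.00129) and Tgfb2 (1.49, adjusted p = 0.00572) are among the 7 higher genes as well. Both passed the filter only through knockout libraries, so that their direction is no separate result here either. The gene of the other activin subunit, Inhbb, fell by 2.18 (adjusted p = 0.0031). In E294K against FH-Prdm14 cells 3 of the 24 genes were higher and 1 lower (16.7% against 19.5% of all genes), with a median of -0.35. Besides Foxh1, the corepressor gene Skil was higher, at 40.7 to 44.3 RPKM against 18.2 to 19.7 RPKM (1.14, adjusted p = 0.00271). Tgif1, also a corepressor gene, differed by 0.45 (adjusted p = 0.0447) and Pmepa1 by -0.97 (adjusted p = 0.0357).

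**Figure D4:**
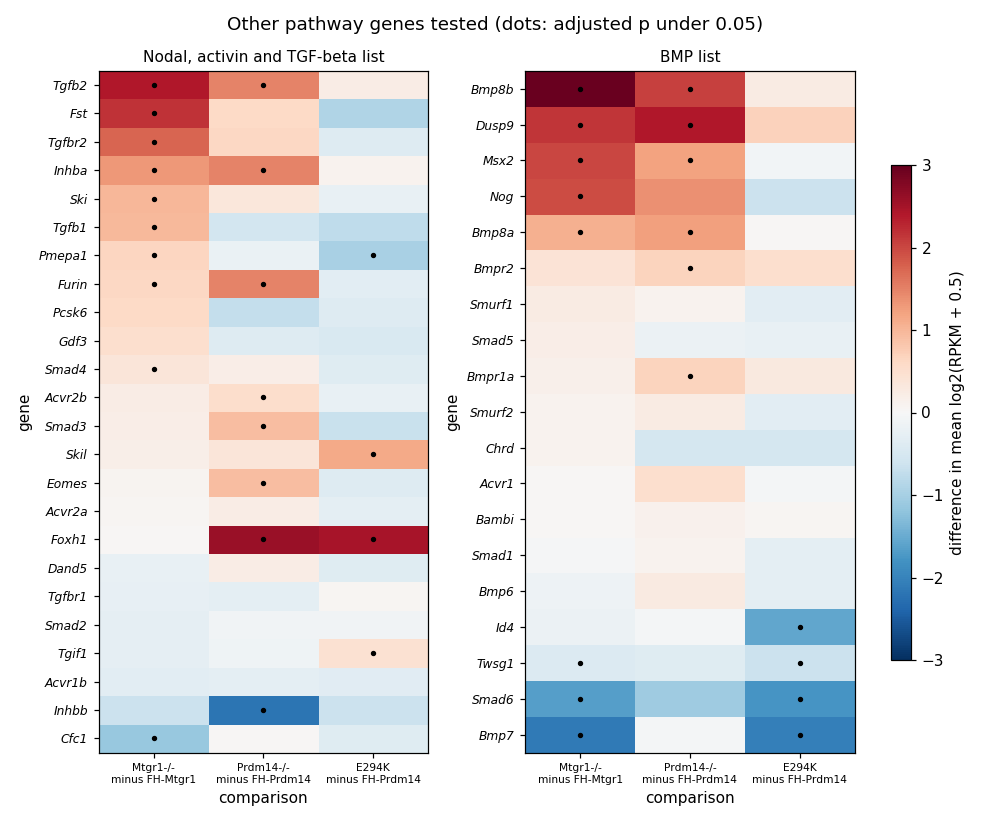
Difference in mean log2(RPKM + 0.5) (colour) of the other pathway genes tested, 24 of the Nodal, activin and TGF-β list and 19 of the BMP list, in 3 comparisons; dots mark an adjusted p under 0.05. Foxh1 was high in Prdm14-/- and E294K cells relative to FH-Prdm14 cells. Bmp7 and Smad6 were low in Mtgr1-/- relative to FH-Mtgr1 cells and in E294K relative to FH-Prdm14 cells. Smad6 was also lower in Prdm14-/- cells, without passing (-1.07, adjusted p = 0.052).

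Of the 25 BMP genes 19 were tested. In Mtgr1-/- against FH-Mtgr1 cells 5 were higher and 3 lower (42.1% against 52.3% of all genes, median 0.10), and in Prdm14-/- against FH-Prdm14 cells 6 were higher and 0 lower (31.6% against 25.2%, median 0.26). Dusp9, a phosphatase that acts on ERK and is induced by BMP in mESCs, was at 169.6 to 304 RPKM in Mtgr1-/- and 179.8 to 237 RPKM in Prdm14-/- cells. It was at 33.5 to 50.9 RPKM in the rescue lines of both, with differences of 2.15 (adjusted p = 1.11e-05) and 2.41 (adjusted p = 6.99e-05). Bmp8b, a ligand, was at 7.997 to 18.7 RPKM in Mtgr1-/- against 0.855 to 1.17 RPKM in FH-Mtgr1 cells (2.97, adjusted p = 2.18e-05) and was 2.06 higher in Prdm14-/- cells (adjusted p = 0.00274). Its neighbour Bmp8a rose in both by 1.06 (adjusted p = 0.00548) and 1.24 (adjusted p = 0.0154), but the paralogues are close in sequence and reads may have been split between them. Msx2, a BMP target, rose by 2.01 (adjusted p = 4.31e-05) and 1.20 (adjusted p = 0.0115). Nog, a BMP antagonist, was 1.95 higher in Mtgr1-/- cells (adjusted p = 0.0114), with 0.958 to 8.36 RPKM against 0.204 to 0.226 RPKM. No FH-Mtgr1 line reached 1 RPKM, so that Nog passed the filter through other conditions, Mtgr1-/- among them. Its direction, counted among the 5 higher genes, is therefore no separate result.

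Other genes of the BMP list fell. In E294K against FH-Prdm14 cells 0 of the 19 were higher and 4 lower (21.1% against 19.5% of all genes, median -0.30), namely Bmp7, Smad6, Id4 and Twsg1. Bmp7 was at 1.07 to 1.66 RPKM in Mtgr1-/- and 6.54 to 7.64 RPKM in FH-Mtgr1 cells (-2.12, adjusted p = 3.11e-06), and at 1.93 to 2.09 RPKM in E294K against 9.27 to 10.6 RPKM in FH-Prdm14 cells (-2.05, adjusted p = 7.46e-05). In Prdm14-/- cells Bmp7 stayed at 8.11 to 11.3 RPKM, with a difference of -0.05 (adjusted p = 0.897). Smad6, the inhibitory Smad of the BMP branch, was at 1.70 to 4.01 RPKM in Mtgr1-/- against 7.47 to 9.62 RPKM in FH-Mtgr1 cells (-1.65, adjusted p = 0.000741) and fell by 1.77 in E294K cells (adjusted p = 0.00632). In Prdm14-/- cells it was at 5.72 to 7.29 RPKM against 14.0 to 14.3 RPKM in FH-Prdm14 cells, groups that did not overlap, but the difference of -1.07 missed the threshold (adjusted p = 0.052). Id4, the fourth Id gene, was at 1.91 to 2.04 RPKM in E294K and 6.42 to 7.08 RPKM in FH-Prdm14 cells (-1.55, adjusted p = 0.0474), so that it lay on the other side of FH-Prdm14 from Id1. Twsg1, which encodes a secreted BMP-binding protein, differed by -0.63 (adjusted p = 0.0136).

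Markers of other cell types were read beside these results. Of 5 trophoblast genes 3 were tested, and all 3 (Krt8, Hand1 and Gata3) passed as higher in Mtgr1-/- cells against their rescue. In Prdm14-/- against FH-Prdm14 cells Krt8 and Gata3 were higher. In E294K against FH-Prdm14 cells, where Id1 was higher, Krt8 was at 63.0 RPKM in both lines against 18.01 and 22.9 RPKM (1.61, SE 0.49, adjusted p = 0.0361). The summed level of the list was 798 to 1344 RPKM in Mtgr1-/-, 399.98 to 561 RPKM in Prdm14-/- and 19.5 to 68.5 RPKM in the rescue and E294K lines, nearly all of it Krt8, a keratin that other epithelia also use. Hand1 was at 33.7 to 36.1 RPKM in Mtgr1-/- cells against 1.87 to 3.31 RPKM in FH-Mtgr1 cells, whereas the defining genes Cdx2 and Elf5 reached at most 1.19 and 0.497 RPKM in any library. Their part in the changes of the members was not tested, and in bulk RNA fewer cells of a type and less RNA per cell cannot be told apart. The summed primitive streak list was at 0.649 to 7.55 RPKM in serum+LIF and 9.71 to 29.0 RPKM in 2i+LIF, in the latter nearly all of it Gsc, itself a Nodal target. Gsc, the only gene of that list tested, was lower in Prdm14-/- (-1.37, adjusted p = 0.0262) and E294K cells (-2.66, adjusted p = 0.00102) than in FH-Prdm14 cells.

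Of the 5 core pluripotency genes, all tested, Sall4 was higher (0.79, adjusted p = 0.00058) and Nanog lower (-0.82, adjusted p = 0.00757) in Mtgr1-/- against FH-Mtgr1 cells. In Prdm14-/- against FH-Prdm14 cells 3 were lower: Nanog (-1.33, adjusted p = 0.00351), Pou5f1 (-0.94, adjusted p = 0.000751) and Sall4 (-0.75, adjusted p = 0.00736). In E294K cells Nanog (-1.04, adjusted p = 0.0179) and Sox2 (-0.68, adjusted p = 0.0402) were lower than in FH-Prdm14 cells, whereas Pou5f1 was higher than in Prdm14-/- cells (1.11, adjusted p = 0.000428). The list summed to 1087 to 2081 RPKM. Of 5 fibroblast genes 3 were tested. The collagen genes Col1a1 (1.72, adjusted p = 0.00465) and Col1a2 (1.77, adjusted p = 0.0016) were higher and Thy1 lower (-1.74, adjusted p = 3.77e-06) in Mtgr1-/- cells, and Col1a2 was higher in Prdm14-/- cells (1.67, adjusted p = 0.0173). Col1a2 reached 1 RPKM only in knockout libraries, so that it passed the filter through them. Of 6 primitive endoderm genes 5 were tested. Gata4, Gata6 and Pdgfra were lower in Mtgr1-/- cells (adjusted p = 0.00213 or below), and Gata4 (1.35, adjusted p = 0.0236) and Dab2 (2.00, adjusted p = 0.000118) were higher in Prdm14-/- cells. Dab2 was also higher in E294K than in FH-Prdm14 cells (2.45, adjusted p = 6.16e-05). Pdgfra passed the filter through the FH-Mtgr1 lines, where it was at 1.32 to 2.30 RPKM. The primitive endoderm and fibroblast lists summed to at most 20.2 and 27.5 RPKM in any library, and the part of these genes in the changes of the members was not tested.

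Ordered by mean log2(RPKM + 0.5), some members had steps, meaning neighbouring conditions with a 95% interval of their difference that left out 0. For Bmp4 and Smad7, as for Nodal, no neighbouring conditions had such an interval. With few libraries a condition this does not show a continuum. Ranges of some neighbours did not overlap. For Smad7 these were FH-Prdm14 and E294K, Prdm14-/- and wt serum, and wt serum and FH-Mtgr1. For Bmp4 they were Mtgr1-/- and wt serum, and wt serum and FH-Mtgr1, and for Nodal FH-Mtgr1 and E294K. Lefty1 ran from 2i through Prdm14-/-, Mtgr1-/-, FH-Mtgr1, E294K and wt serum to FH-Prdm14, with a step of 0.93 from Mtgr1-/- to FH-Mtgr1. Lefty2 ran from 2i through E294K, Prdm14-/-, Mtgr1-/-, FH-Prdm14 and wt serum to FH-Mtgr1, with a step of 1.73 from Mtgr1-/- to FH-Prdm14. The order of Tdgf1 was wt serum, E294K, 2i, FH-Prdm14, FH-Mtgr1, Mtgr1-/- and Prdm14-/-, with a step of 0.75 from FH-Prdm14 to FH-Mtgr1. All 3 Id genes began with Mtgr1-/- and ended with FH-Prdm14 and then 2i, and the last step was 1.54 for Id1, 2.27 for Id2 and 2.37 for Id3. Id1 also had steps of 1.29 from Mtgr1-/- to FH-Mtgr1 and 1.78 from wt serum to FH-Prdm14. Id2 had a further step of 1.13 from Mtgr1-/- to Prdm14-/-. Id1 was 3.13 to 3.98 times Id3 in the FH-Mtgr1 lines and 1.62 to 2.39 times Id3 in the Mtgr1-/- clones, and 0.619 and 16.3 times Id3 in the 2i libraries.

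Across the 15 libraries, Pearson's r on the log2 scale was 0.96 between Id1 and Id2, 0.88 between Id1 and Id3, 0.90 between Id2 and Id3 and 0.74 between Lefty1 and Lefty2. It was 0.34 between Bmp4 and Id1 and 0.14 between Nodal and Lefty1. In the 13 libraries without 2i these values were 0.90, 0.85, 0.93, 0.60, -0.30 and -0.17 in the same order, so that the last 2 changed sign. These describe libraries that share clones and conditions. Over the 15 libraries the genes whose pattern was most like that of Nodal were Abtb1, Rabep2 and Hcn2 (r = 0.93 to 0.96), and those most like Lefty1 were Ly6e, Cyp2b23 and Spint1 (0.92 to 0.94). For Bmp4 they were Nomo1, Tcf15 and Josd2 (0.93 to 0.94), and for Id1 Actg1, Zfp608 and Atxn1l (0.97 to 0.99). In the 13 libraries without 2i the same 12 pairs had r between 0.89 and 0.97.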

How the data were processed

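The 15 RNA-seq libraries were used, and 11 ChIP-seq samples are not analysed here. The authors used Tophat (mm9) for single-end reads of 51 or 76 bases and HTSeq for counts on RefSeq genes, and deposited RPKM values with gene lengths; versions are not given in the sources used here. RPKM times length gave whole reads for 100.0% of values (tolerance 0.01), from which depth was computed.

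Genes with at least 1 RPKM in 2 or more libraries (13477) were fitted as log2(RPKM + 0.5), 1 mean per condition over 15 libraries, with limma 3.58.1 (eBayes with trend, Benjamini-Hochberg, threshold 0.05) in R 4.3.3; Python 3.11.15 was used elsewhere. The fits were tested on simulated data. Replicates are libraries the labels call separate. Rescue lines derive from the knockout clones, which pairs them; deviations of same-clone libraries correlated at -0.18 to 0.30. Members and lists were chosen with earlier results of these data known. A gene of the Nodal, activin and TGF-β list is not reported here and is left out of its counts. All members were named, as were list genes past the threshold with a difference of at least 1 in either knockout against its rescue line; other list genes were named after their values were seen. Alternatives were pseudocounts of 0.1 and 1, no filter, the compared conditions alone, median-of-ratios scaling, voom on the reads, a clone block and leaving out libraries; an adjustment for transcript GC content (known for 89.4% of genes; lowess span 0.3) and a fit and correlations without the 2i libraries were added after the data were seen.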

Additional observations from a re-analysis of the deposited data

Results flagged for a closer look

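The Mtgr1 and the Prdm14 knockout-against-rescue effects differed by the test of the difference itself for 2 members. For Lefty1 the Mtgr1 effect minus the Prdm14 effect was -1.76 (SE 0.50, adjusted p = 0.0196 in the limma fit). The adjusted p was 0.0641 without Prdm14-/- clone G6 and 0.0726 without FH-Prdm14 line F10. For Bmp4 it was 1.64 (SE 0.47, adjusted p = 0.0189), with adjusted p-values of 0.0758 without Prdm14-/- clone F10, 0.0617 without FH-Prdm14 line F10 and 0.0574 without G6. Bmp4 was 3.80-fold higher in the FH-Prdm14 than in the FH-Mtgr1 reference lines, and Lefty1 was lower there (-1.03). Between the knockouts themselves, Mtgr1-/- minus Prdm14-/- was -0.73 for Lefty1 and -0.28 for Bmp4, and neither passed.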

How the results depend on the processing

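Of 1188 alternatives for single members, 1031 left direction and side of the threshold as they were, 77 gained and 54 lost the call, and 26 turned the direction, none of these with a call in either fit. The clone block was fitted to the compared conditions alone. Members past the threshold went from 4 to 7 for Prdm14-/- against FH-Prdm14 (7 with GC adjustment) and from 1 to 5 for E294K against FH-Prdm14 (6 with GC adjustment). For E294K against Prdm14-/- they went from 3 to 5. Without the block, the compared conditions alone already added Lefty2 and Smad7 for Prdm14-/- against FH-Prdm14. That fit gave 6 members for E294K against FH-Prdm14, of which Tdgf1 was lost with the block (adjusted p = 0.0532). Over all genes, 7288 of 13477 passed in the blocked fit of E294K against FH-Prdm14 and 5661 in that against Prdm14-/-. The blocked fit changed no other member's call beyond those given with the results above and Smad7 in E294K against FH-Prdm14 (adjusted p = 0.0098). With the block and GC adjustment together, Nodal in Mtgr1-/- against FH-Mtgr1 (-0.38, adjusted p = 0.0201), Id3 in E294K against FH-Prdm14 (0.67, adjusted p = 0.00566) and Smad7 in E294K against Prdm14-/- (0.47, adjusted p = 0.0117) passed as well. With the compared conditions alone the counts were 6 for E294K against FH-Prdm14, 0 for 2i against serum (limma, where 0 of 13477 genes passed and 1593 had an unadjusted p under 0.05) and 4 for the difference between knockout effects. Without the 2i libraries they were 4 for E294K against FH-Prdm14, 5 for Mtgr1-/- against Prdm14-/- and 4 for the difference between effects. Over all genes, 5767 of 13477 passed in that fit for Mtgr1-/- against Prdm14-/- and 5326 for the difference between effects. GC adjustment gave 3 for E294K against FH-Prdm14 and 4 for the difference between effects. With it Nodal was 0.41 higher in FH-Prdm14 than in FH-Mtgr1 cells (adjusted p = 0.157). Lefty1 was then 1.63 higher in Prdm14-/- cells than in wt serum. Voom gave 4 for Mtgr1-/- against Prdm14-/-, and no filter gave 3 for Mtgr1-/- against wt serum. Leaving out single libraries gave 4 to 6 members for Mtgr1-/- against FH-Mtgr1, 3 to 4 for Prdm14-/- against FH-Prdm14, 0 to 1 for E294K against FH-Prdm14, 2 to 3 for E294K against Prdm14-/-, 3 to 5 and 0 to 2 for Mtgr1-/- and Prdm14-/- against wt serum, 6 for 2i against serum, 0 to 3 for Mtgr1-/- against Prdm14-/-, 2 to 5 between the rescue lines and 0 to 3 for the difference between effects.

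The members that turned direction were all uncalled. With GC adjustment, alone or with the block, Bmp4 was 0.018 in E294K against FH-Prdm14 and Id1 0.12 in E294K against Prdm14-/-, and Tdgf1 was 0.034 in 2i against serum with GC adjustment. Leaving out single libraries, the values ranged from -0.27 to 0.028 for Bmp4 in E294K against FH-Prdm14. In E294K against Prdm14-/- they ranged from -0.015 to 0.093 for Lefty2, -0.059 to 0.33 for Bmp4, -0.31 to 0.17 for Id1 and -0.047 to 0.35 for Smad7. In 2i against serum they ranged from -0.24 to 0.98 for Nodal, -0.58 to 0.037 for Tdgf1 and -0.69 to 1.90 for Smad7, of which Nodal and Smad7 passed with 2i library 1 alone (adjusted p = 0.0278 and 0.00142). In Mtgr1-/- against Prdm14-/- they ranged from -0.36 to 0.0575 for Lefty2, -0.0595 to 0.78 for Tdgf1 and -0.12 to 0.27 for Smad7. For the difference between effects they ranged from -0.31 to 0.20 for Nodal and -0.39 to 0.20 for Id2, and Id1 passed without FH-Mtgr1 line C3 (-1.36, adjusted p = 0.0119).

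Over all genes the counts passing moved by more than 1.5 times in some fits. They ranged from 1679 to 6000 for Prdm14-/- against FH-Prdm14 (3390 as reported), 869 to 7288 for E294K against FH-Prdm14 (2633), 1515 to 5661 for E294K against Prdm14-/- (4435) and 625 to 4778 for Prdm14-/- against wt serum (3423). They fell to 2995 for Mtgr1-/- against Prdm14-/- (4776), 2844 between the rescue lines (5600) and 2611 for the difference between effects (4238). Median-of-ratios scaling moved the median of all genes by 0.13 for Mtgr1-/- against wt serum, 0.11 for 2i against serum and -0.10 between the rescue lines, and the higher share of calls from 40.2% to 52%, 40.6% to 53.4% and 63.1% to 52.6%, while no member changed direction. Differences are limited by 2 or 3 libraries a condition, and by 1 for wt serum.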
